A study of Mus musculus with 15 samples.

Results

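The mitosis and spindle genes are 41 genes that act when a cell enters, passes through and leaves mitosis, and they were followed in endothelial cells of the mouse heart. They were chosen by name from a list of proteins of the mitotic kinases, kinetochore, spindle, central spindle and anaphase-promoting complex. The choice was made with earlier results of these data known. All 41 were found among the 23337 genes of the deposited count table. All 41 also passed the filter on low counts, which left 12471 genes tested.

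RNA was sequenced from cells that carried the endothelial surface protein CD31 and lacked the leukocyte protein CD45, isolated by flow cytometry from 15 mouse hearts. The mice had undergone transverse aortic constriction (TAC), which narrows the aorta and loads the left ventricle with pressure, or sham surgery, and the hearts were taken at 4 weeks. The comparison addresses what loss of STING, the adaptor of the innate response to cytosolic DNA, does in endothelium under this load. With 1 library per mouse, WT contributed 3 sham and 5 TAC mice and KO contributed 3 sham and 4 TAC mice. KO mice were Cad5CreERT2+/+STINGfl/fl and carry an inducible Cre recombinase driven by a promoter of endothelial cells, and WT mice were Cad5CreERT2-/-STINGfl/fl. The WT controls therefore share the loxP-flanked STING alleles and lack the Cre, so the presence of Cre and the loss of STING cannot be told apart. An inducing agent, the age and the sex of the mice are not given in the sources used here. The mouse numbers of WT (131 to 138) and KO (348 to 354) animals do not overlap, and the labels name 1 batch for all libraries. Anything else that differed between these sets of mice can therefore not be told apart from genotype.

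Total counts ran from 1362346 in WT sham 133 to 15670319 in WT TAC 134, and the median count of the 41 genes ran from 4 in WT sham 133 to 182 in KO TAC 352. Tmem173, the gene for STING, lay between 53.9 and 82.0 CPM (counts divided by the scaled total of the library) in the WT libraries and between 17.3 and 31.4 CPM in the KO libraries. The KO sham libraries 348 and 350 stood apart, with 209 and 324 tested genes at 0 where the other libraries gave at least 10 expected counts, against 3 to 26 such genes in the other 13 libraries. Among the mitosis and spindle genes this touched Kif2c in KO sham 348 (0 counts where 51.8 were expected from the other libraries of its group). In KO sham 350 it touched Melk, Spc25, Birc5 and Ckap2l, each at 0 counts where 13.1, 16.5, 20.7 and 44.0 were expected. The counts of genes called against KO sham are given again below without both libraries. The 10 endothelial markers, which include Pecam1 (the gene for CD31) and Cdh5, summed to between 13293 and 17202 CPM in every library, and Ptprc (the gene for CD45) lay between 0.0933 and 2.26 CPM.

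As background, a cell enters mitosis when the kinase CDK1, bound to cyclin B, phosphorylates its targets with the help of Polo-like and Aurora kinases. Kinetochores then attach chromosomes to spindle microtubules under the watch of the spindle checkpoint, and the anaphase-promoting complex (APC/C) with its activator CDC20 ends mitosis by marking cyclin B and securin for destruction. Genes of this programme are transcribed late in the cell cycle. In resting cells the DREAM complex holds them off through promoter elements called CHR (cell cycle genes homology region), and in cycling cells its MuvB core, joined by MYBL2 and FOXM1, acts at the same elements, often with the factor NF-Y at neighbouring CCAAT boxes. Endothelial cells of the adult heart are mostly at rest.

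Promoters of 7 of the genes are shown because the CHR and CCAAT letters are what many of these promoters have in common and the choice of the genes did not use them. Sequences are from RefSeq on GRCm38.p6, the assembly of mm10, in lower case with motif letters in capitals, 5′ to 3′ on the gene's own strand, and each ends at the base before the transcription start. CHR was searched as TTTGAA and as TTCGAA, and CCAAT as CCAAT, on both strands. A match on the opposite strand therefore reads TTCAAA or ATTGG, and TTCGAA reads the same on both strands.
Cdk1 (chr10:69352913-69353012 on the minus strand), Prc1 (chr7:80294376-80294475 on the plus strand) and Cdc20 (chr4:118437344-118437443 on the minus strand) hold a CHR next to a CCAAT box within 100 bases of the start.
Cdk1: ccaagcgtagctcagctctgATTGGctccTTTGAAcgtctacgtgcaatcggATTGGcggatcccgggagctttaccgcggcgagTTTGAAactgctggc
Prc1: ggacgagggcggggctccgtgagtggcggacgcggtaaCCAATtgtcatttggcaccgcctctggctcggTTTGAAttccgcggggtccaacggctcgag
Cdc20: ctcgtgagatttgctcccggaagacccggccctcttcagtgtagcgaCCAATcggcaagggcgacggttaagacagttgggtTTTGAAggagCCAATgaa
Mki67 (chr7:135716380-135716579 on the minus strand) holds 2 CHR and 3 CCAAT matches in the 200 bases shown, and Top2a (chr11:99024190-99024439 on the minus strand) holds 4 CHR and 6 CCAAT matches in 250 bases, the most CHR matches of any of these genes.
Mki67: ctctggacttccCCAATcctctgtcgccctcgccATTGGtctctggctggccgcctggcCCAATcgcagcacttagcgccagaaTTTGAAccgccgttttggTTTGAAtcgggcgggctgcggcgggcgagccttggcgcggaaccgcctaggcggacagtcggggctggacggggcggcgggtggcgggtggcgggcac
Top2a: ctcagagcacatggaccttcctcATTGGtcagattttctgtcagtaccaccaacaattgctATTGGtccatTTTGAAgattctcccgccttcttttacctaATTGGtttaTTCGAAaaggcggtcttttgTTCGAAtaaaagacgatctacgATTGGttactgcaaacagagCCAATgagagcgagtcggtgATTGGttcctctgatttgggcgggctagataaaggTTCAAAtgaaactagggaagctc
Ube2c (chr2:164769679-164769928 on the plus strand) holds 1 CHR and 6 CCAAT matches, of which 1 on each strand overlap.
Ube2c: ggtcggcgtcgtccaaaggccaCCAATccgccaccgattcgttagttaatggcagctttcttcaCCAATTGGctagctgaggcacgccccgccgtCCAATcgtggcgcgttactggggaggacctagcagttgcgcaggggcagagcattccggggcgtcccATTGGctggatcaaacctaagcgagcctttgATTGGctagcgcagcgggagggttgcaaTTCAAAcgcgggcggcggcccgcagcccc
Anln (chr9:22389207-22389306 on the minus strand) is shown as a gene with no match of either motif.
Anln: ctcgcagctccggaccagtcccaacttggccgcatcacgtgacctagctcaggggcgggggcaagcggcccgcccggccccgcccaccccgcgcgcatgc

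Of the 41 genes 35 had a promoter entry in the table, and Ccna2, Foxm1, Aurkb, Incenp, Tpx2 and Kif20a had none. The entry began within 100 bases of the gene start of the count table for 34 of the 35, Kif2c being the exception. In the 250 bases before the start, a CHR was found in 15 of 35 promoters (42.9%), against 1036 of 8843 promoters of all genes tested (11.7%). A CHR within 60 bases of the start was found in 10 of 35 (28.6%), against 168 of 8843 (1.9%). At least 1 CCAAT was found in 26 of 35 (74.3%) and at least 2 in 18 of 35 (51.4%), against 36.6% and 13.8% of all genes tested. Both motifs stood in 12 of 35 promoters (34.3%) and in 4.73% of all genes tested. Melk, Ndc80, Nuf2, Birc5, Nusap1 and Anln had neither, which says only that these letters are not in this window. The log2 fold change in KO TAC against WT TAC, described next, had a median of 1.87 over the 15 genes with a CHR match and 1.94 over the 20 without one, so the genes with and without these letters moved by similar amounts. 

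**Figure D1:**
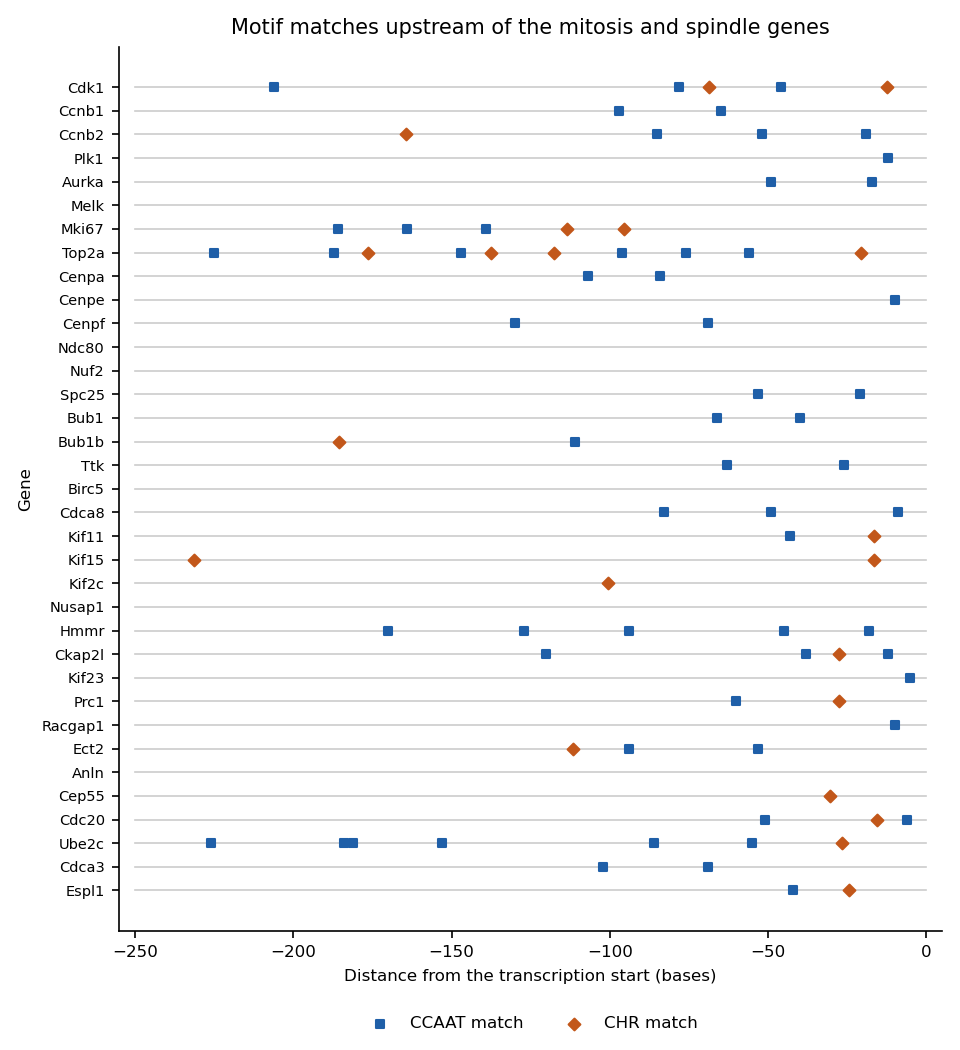
Position of CHR (diamonds) and CCAAT (squares) matches on either strand in the 250 bases before the transcription start, for the 35 genes with a promoter entry (1 line per gene, x axis in bases from the start). CHR matches lie within 60 bases of the start in 10 genes, and 6 genes have no match of either motif.

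After TAC, all 41 mitosis and spindle genes were higher in KO than in WT endothelial cells. The summed level of the 41 genes was 265, 237, 117, 202 and 121 CPM in the WT TAC libraries 134 to 138, and 667, 927, 715 and 695 CPM in the KO TAC libraries 351 to 354. Every KO TAC library lay above every WT TAC library, and the mean was 3.99 times as high in KO TAC (751 ± 119 CPM, SD, n = 4) as in WT TAC (188 ± 67.1 CPM, SD, n = 5). Of the 41 genes 41 passed an adjusted p of 0.05 by edgeR's quasi-likelihood test, where 14.8% of all genes tested were called higher and 15% lower. For each of the 41, no KO TAC library overlapped a WT TAC library, which held for 15% of all genes tested. The median log2 fold change was 1.87, against -0.02 over all genes tested, and 40 of the genes were over 2-fold and 18 over 4-fold higher. Because these are sorted cells in bulk, a larger share of cells in mitosis and more of these transcripts per such cell cannot be told apart.

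**Figure D2:**
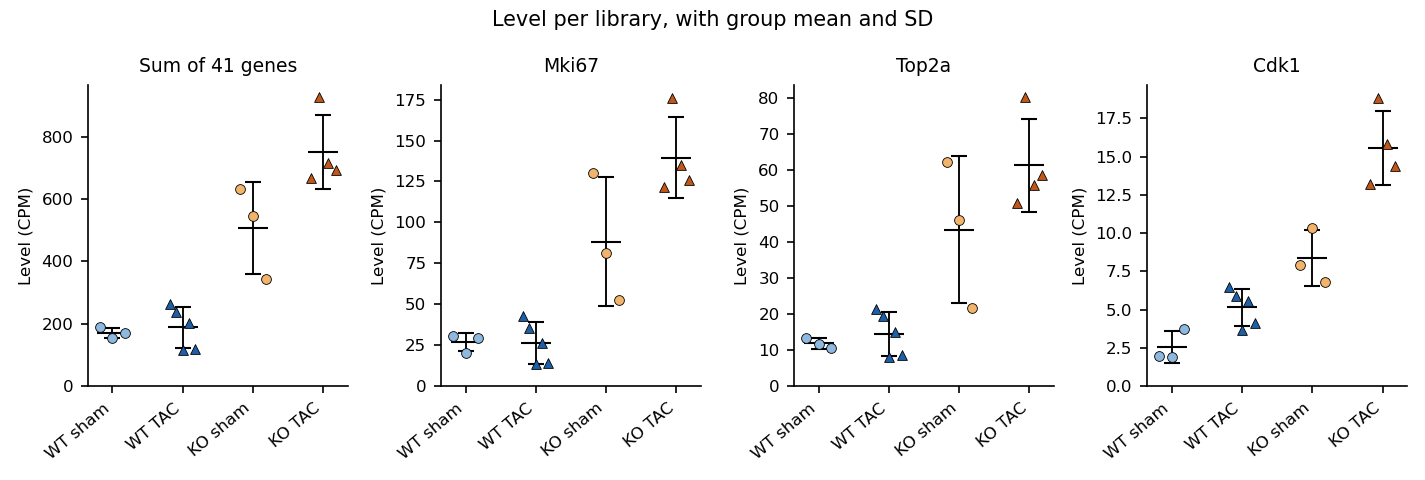
Level in CPM (y axis, linear, from 0) of the sum of the 41 genes and of Mki67, Top2a and Cdk1 in each of 15 libraries (points), by group, with the group mean and SD (bars). The KO TAC libraries sit between 667 and 927 CPM for the sum and the WT TAC libraries between 117 and 265 CPM.

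Leukocyte markers were low in all groups, and fibroblast, cardiomyocyte and erythroid markers were lower in KO TAC than in WT TAC. The 14 leukocyte markers summed to 8.42 to 13.0 CPM in WT TAC and 9.51 to 18.4 CPM in KO TAC, and 1 of 5 tested, Cd68, was called higher (log2 fold change 1.37). Fcgr1 was at 0 in all KO TAC libraries, and in WT TAC its median was also 0 and its highest value 0.0752 CPM, so no difference is read from it. The 10 fibroblast markers summed to 529 to 804 CPM in WT TAC and 220 to 361 CPM in KO TAC, with 7 of 10 called lower and none at 0 throughout. The 9 cardiomyocyte markers summed to 219 to 249 CPM in WT TAC and 103 to 167 CPM in KO TAC, with 4 of 9 called lower. The 6 erythroid markers of the table summed to 35.9 to 73.6 CPM in WT TAC and 19.0 to 32.8 CPM in KO TAC, with Hba-a1 and Hba-a2 at 0 in every library. The erythroid markers Beta-s and Alas2 had counts in every library. Whether the handling of multimapping reads gave the 0 values was not tested, so they are not read as absence. Pericyte and smooth muscle markers summed to 124 to 173 CPM in WT TAC and 114 to 168 CPM in KO TAC, where Tagln, Myh11 and Acta2 were called higher and Rgs5 lower. The 5 lymphatic and endocardial markers summed to 119 to 145 CPM in WT TAC and 144 to 170 CPM in KO TAC. Of the 10 endothelial markers, 7 were called lower and Pecam1 higher in KO TAC, and the sums were 15336 to 17202 CPM in WT TAC and 13293 to 14124 CPM in KO TAC. The part of these differences in the rise of the mitosis and spindle genes was not tested.

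Among the 8 cyclins, entry kinases and their transcription factor, all 8 rose, and the median log2 fold change was 1.89. Cdk1, the kinase that starts mitosis, lay at 6.46, 5.88, 3.68, 5.54 and 4.12 CPM in WT TAC and 13.2, 18.8, 15.8 and 14.4 CPM in KO TAC. The lowest KO TAC library was thus above the highest WT TAC library, and the log2 fold change was 1.59 ± 0.21 (SE), with adjusted p = 8.22e-06 by edgeR. Ccnb1, a cyclin that activates CDK1, was at 2.6, 1.34, 0.601, 1.45 and 1.1 CPM in WT TAC and 4.86, 8.67, 4.6 and 5.85 CPM in KO TAC, a log2 fold change of 2.05 ± 0.37. Plk1, a Polo-like kinase that acts on centrosomes and kinetochores, was at 2.22, 2.47, 1.05, 1.54 and 0.687 CPM in WT TAC and 8.45, 11.2, 7.16 and 6.7 CPM in KO TAC. Its log2 fold change of 2.34 ± 0.33 was the largest of the 8. Foxm1, the transcription factor that drives many genes of this group, was at 6.33, 6.69, 3.61, 7.27 and 5.09 CPM in WT TAC and 20.1, 19.7, 19.8 and 16.5 CPM in KO TAC, a log2 fold change of 1.71 ± 0.23. Library 354 was the low one among the KO TAC mice for Foxm1 and still stood above all WT TAC libraries. The other 4, the cyclins Ccna2 and Ccnb2 and the kinases Aurka and Melk, rose by log2 fold changes of 2.18, 1.73, 1.46 and 2.13.

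Mki67 and Top2a, which act on mitotic chromosomes and mark dividing cells, were the most abundant of the 41 by CPM. Mki67, the coat of mitotic chromosomes that the Ki-67 antibody detects, was at 42.9, 35.3, 13.2, 26.4 and 14.2 CPM in WT TAC and 121, 176, 135 and 126 CPM in KO TAC. WT TAC 136 and 138 were the low WT libraries and KO TAC 352 the high KO library, without overlap between the groups. The log2 fold change of Mki67 was 2.37 ± 0.27, or 5.18-fold, with adjusted p = 8.09e-07 by edgeR. Top2a, the topoisomerase that disentangles sister chromatids, was at 21.5, 19.5, 8.12, 15.1 and 8.52 CPM in WT TAC and 50.7, 80.0, 55.7 and 58.6 CPM in KO TAC. The same 3 libraries were the extremes for Top2a, and its log2 fold change was 2.05 ± 0.25.

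All 9 genes of the centromere, kinetochore and spindle checkpoint rose, over the widest range of any of the role groups. Cenpf, a large protein of the outer kinetochore, was at 9.44, 10.2, 3.61, 7.00 and 5.09 CPM in WT TAC and 32, 36.7, 37.3 and 39.4 CPM in KO TAC. That put every KO TAC library more than 20 CPM above every WT TAC library, and its adjusted p of 3.74e-07 by edgeR was the smallest of the 41 genes (log2 fold change 2.33 ± 0.25). Bub1, a checkpoint kinase, was at 2.34, 1.4, 0.677, 1.27 and 0.687 CPM in WT TAC and 7.58, 8.86, 6.24 and 5.56 CPM in KO TAC, a log2 fold change of 2.41 ± 0.39. Cenpe, the kinetochore kinesin that carries chromosomes to the spindle equator, rose by 2.33 ± 0.28. Cenpa, the histone variant that marks the centromere, was at 6.65, 6.08, 6.09, 6.81 and 3.57 CPM in WT TAC and 11.7, 12.8, 11.7 and 8.41 CPM in KO TAC. Library 138 was the low WT library for Cenpa, and the log2 fold change of 0.92 ± 0.30 was the smallest of the 41 (adjusted p = 0.0215 by edgeR). The call on Cenpa did not survive the removal of WT TAC 138 (edgeR adjusted p = 0.0553) or of KO TAC 351, 352 or 353 (0.0511, 0.0652 and 0.0525). Spc25, a subunit of the NDC80 complex that grips microtubules, rose by 1.64 ± 0.57 and lost its call on removal of WT TAC 134 or 136 (edgeR adjusted p = 0.0723 and 0.0831) or of KO TAC 352, 353 or 354 (0.0527, 0.0982 and 0.0664). Its partners Ndc80 and Nuf2 rose by 1.70 and 1.83, and the checkpoint genes Bub1b and Ttk by 1.33 and 1.68.

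The 4 subunits of the chromosomal passenger complex, which corrects faulty attachments through the kinase Aurora B, all rose. Birc5 (survivin) was at 2.09, 2.27, 1.65, 1.54 and 0.412 CPM in WT TAC and 6.22, 8.67, 6.34 and 6.7 CPM in KO TAC, a log2 fold change of 2.07 ± 0.49. Incenp, the scaffold of the complex, was at 10.1, 11.8, 6.92, 11 and 7.42 CPM in WT TAC and 18.6, 23.2, 20.4 and 21 CPM in KO TAC. The groups again did not overlap, but at 1.13 ± 0.18 the log2 fold change of Incenp was the smallest after that of Cenpa. Aurkb, the kinase itself, rose by 1.55 ± 0.41, and Cdca8 (borealin) by 1.83 ± 0.39, with KO TAC 352 well above the other KO TAC libraries at 9.23 CPM for Cdca8.

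The 7 genes of spindle motors and microtubule binding rose with a median log2 fold change of 2.21. Kif15, a kinesin that holds the spindle poles apart, was at 2.22, 3.48, 0.977, 1.91 and 1.51 CPM in WT TAC and 9.65, 21.3, 12.1 and 12.3 CPM in KO TAC. Its log2 fold change of 2.74 ± 0.33, or 6.67-fold, was the largest of the 41 genes (adjusted p = 2.44e-06 by edgeR), and KO TAC 352 was the highest library. Kif11, the motor that pushes spindle poles apart at the start of mitosis, was at 8.17, 7.55, 3.16, 4.00 and 2.34 CPM in WT TAC and 23, 32.5, 23.7 and 19.7 CPM in KO TAC, a log2 fold change of 2.25 ± 0.29. Tpx2, which activates Aurora A on the spindle, Nusap1 and Hmmr, which bind spindle microtubules, rose by 2.21, 2.21 and 2.07. Kif2c, a kinesin that takes microtubules apart, and the spindle protein Ckap2l rose by 1.95 ± 0.59 and 1.86 ± 0.51, with larger errors.

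All 7 genes of the central spindle and cytokinesis rose by between 1.55 and 2.37. Prc1, which bundles the microtubules of the central spindle, was at 10.2, 10.5, 3.61, 8.9 and 4.26 CPM in WT TAC and 35, 47.6, 34.6 and 32.9 CPM in KO TAC. KO TAC 352 stood above the other 3 KO libraries for Prc1, and all 4 were more than 20 CPM above WT TAC (log2 fold change 2.29 ± 0.24, adjusted p = 4.27e-07 by edgeR). Anln (anillin), a scaffold of the cleavage furrow, was at 10.2, 6.28, 3.16, 6.09 and 2.47 CPM in WT TAC and 24.6, 36, 28.7 and 31.1 CPM in KO TAC, a log2 fold change of 2.37 ± 0.28. Kif23 and Racgap1, the pair that forms centralspindlin, rose by 1.76 and 1.55. Ect2, which activates RhoA at the furrow, rose by 1.77, Kif20a, a kinesin of the central spindle, by 1.90, and Cep55, which acts in the final cut between daughter cells, by 2.03.

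Of the genes grouped here under APC/C and mitotic exit, all 4 rose. Cdc20, the activator of the APC/C, was at 10.6, 7.22, 7.59, 8.63 and 5.64 CPM in WT TAC and 19.4, 22.8, 12.4 and 18 CPM in KO TAC. The highest WT TAC library (134) came close to the lowest KO TAC library (353) without reaching it, and the log2 fold change was 1.18 ± 0.20. Ube2c, the ubiquitin-conjugating enzyme of the APC/C, rose by 1.87 ± 0.47, Cdca3 by 1.63 ± 0.38 and Espl1 (separase), which cuts cohesin, by 1.74 ± 0.28.

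**Figure D3:**
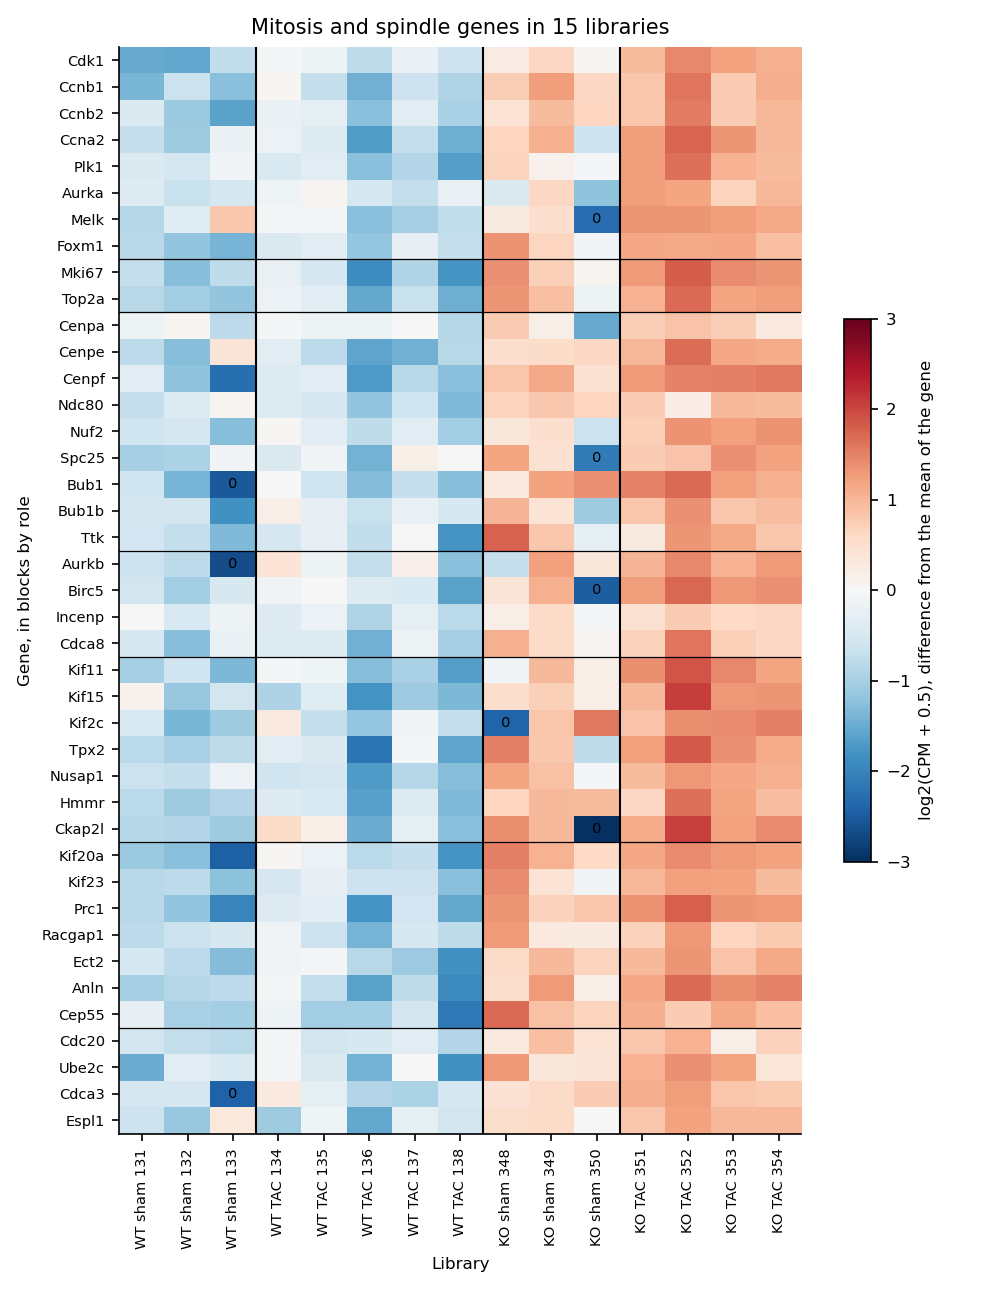
Level of each of the 41 genes (rows, in blocks by role) in each of 15 libraries (columns) as log2(CPM + 0.5), shown as the difference from the gene's mean over all libraries (colour), with 0 marking a library that holds no count. All 4 KO TAC columns lie above the mean for nearly every gene, and KO sham 350 holds 4 genes at 0.

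After sham surgery the same comparison of KO with WT gave 24 of 41 genes higher by edgeR, where 4.57% of all genes tested were called higher, and none lower (4.63% of all genes tested). The summed level was 188, 155 and 170 CPM in the WT sham libraries and 631, 545 and 343 CPM in KO sham, so that all 3 KO libraries stood above all WT ones and the means differed 2.96 times (507 ± 148 against 171 ± 16.9 CPM, SD, n = 3 each). All 41 log2 fold changes were above 0, with a median of 1.67 against 0.00 over all genes tested, and 35 passed at an unadjusted p of 0.05. For 28 of the 41, every KO sham library lay above every WT sham library, which held for 10.3% of all genes tested. The count of genes called was 13 without WT sham 132 and between 16 and 30 without any other single library. With KO sham 348 and 350 both left out it was 20, where KO sham 349 alone is assumed to vary like the other groups, and 12 when only the sham groups were fitted. Of the 24 genes 10 were called under all 22 alternatives run, Foxm1, Mki67, Top2a, Cenpf, Hmmr, Kif20a, Kif23, Prc1, Anln and Cdc20. Without KO sham 348 and 350, where 1.83% of all genes tested were called higher, Cenpe, Ndc80, Ttk, Tpx2, Racgap1 and Cep55 were no longer called, and Aurkb and Birc5 were. Pericyte and smooth muscle markers summed to 124 to 160 CPM in WT sham and 154 to 253 CPM in KO sham, with Abcc9, Cspg4 and Pdgfrb called higher, while leukocyte markers summed to 9.98 to 17.3 and 10.3 to 13.6 CPM. Fibroblast markers summed to 198 to 412 CPM in WT sham and 157 to 464 CPM in KO sham, with Pdgfra called lower. Among endothelial markers, Cdh5 and Pecam1 were called higher and Tek lower, and the erythroid marker Beta-s was called lower. The part of these markers in the result was not tested.

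The central spindle and cytokinesis genes were all called in this comparison, 7 of 7. Kif20a was at 2.64, 2.37 and 0.752 CPM in WT sham and 18.9, 13.7 and 9.87 CPM in KO sham, and its log2 fold change of 2.62 ± 0.40 had the smallest p of the 41 (adjusted p = 0.000259 by edgeR). Prc1 was at 7.26, 5.62 and 3.01 CPM in WT sham and 34.4, 22 and 24.1 CPM in KO sham, a log2 fold change of 2.16 ± 0.34. In both genes the KO sham libraries were all at least 3 times as high as the highest WT sham library. Mki67 was at 30.4, 20.4 and 29.3 CPM in WT sham and 130.5, 81.6 and 52.4 CPM in KO sham, and Top2a at 13.4, 11.7 and 10.5 and 62.2, 46.1 and 21.8 CPM. Library 348 was the high one and 350 the low one for Mki67, Top2a and Foxm1, and none of these genes overlapped between genotypes. Mki67 rose by 1.79 ± 0.36, Top2a by 1.85 ± 0.35 and Foxm1 by 1.95 ± 0.33 (adjusted p = 0.00321, 0.00189 and 0.000685 by edgeR).

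Of the 8 cyclins and entry kinases 5 were called. Cdk1 was at 1.98, 1.92 and 3.76 CPM in WT sham and 7.93, 10.3 and 6.79 CPM in KO sham, a log2 fold change of 1.98 ± 0.32 with adjusted p = 0.000517 by edgeR. Ccnb1, Ccnb2 and Ccna2 rose by 2.31, 1.67 and 1.40. The 3 kinases not called were Plk1 with a log2 fold change of 0.84 ± 0.44, Aurka with 0.51 ± 0.45 and Melk with 0.38 ± 0.73. All 3 were at their lowest in KO sham 350 among the KO sham libraries.

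Of the 9 kinetochore and checkpoint genes 5 were called, Bub1, Cenpf, Ttk, Cenpe and Ndc80, with log2 fold changes of 2.57, 1.76, 2.03, 1.40 and 1.30. Over the 22 alternatives run, Cenpf kept its call in 22, Bub1 in 20, Cenpe in 18, Ttk in 15 and Ndc80 in 7. Removal of WT sham 132 alone ended the calls on Cenpe, Ttk and Ndc80 (edgeR adjusted p = 0.24, 0.135 and 0.163). Cenpa was at 6.13, 7.24 and 3.76 CPM in WT sham and 11.8, 7.81 and 2.06 CPM in KO sham, overlapping between genotypes, with a log2 fold change of 0.27 ± 0.39. None of the 4 subunits of the chromosomal passenger complex was called by edgeR, although Aurkb, Cdca8 and Incenp passed at an unadjusted p of 0.05 (log2 fold changes 1.65 ± 0.59, 1.68 ± 0.54 and 0.52 ± 0.23). Birc5 stood at 3.13, 5.38 and 0 CPM in KO sham, with 1 of 3 libraries at 0, and had a log2 fold change of 1.35 ± 0.70. Kif11, Tpx2, Nusap1 and Hmmr were the 4 of 7 spindle motor and microtubule genes called, by 1.38 to 2.01. Kif15, the gene with the largest change after TAC, was at 5.00, 1.85 and 3.01 CPM in WT sham and 6.93, 7.91 and 5.35 CPM in KO sham and had a log2 fold change of 1.03 ± 0.44 that did not pass. Cdc20 was the 1 of 4 genes called in the APC/C and mitotic exit group. It lay at 7.26, 6.43 and 6.02 CPM in WT sham and 13.3, 20.8 and 14.6 CPM in KO sham, each KO library above each WT library, with a log2 fold change of 1.28 ± 0.27.

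Over both surgeries, 25 of the 41 genes had each of the 7 KO libraries above each of the 8 WT libraries, a pattern held by 3.29% of all genes tested. They include Mki67, Top2a, Prc1, Kif20a and Cdc20. In the other 16 genes the KO libraries that overlapped were KO sham ones. Every KO TAC library lay above all 8 WT libraries of either surgery for all 41 genes, against 10.7% of all genes tested.

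**Figure D4:**
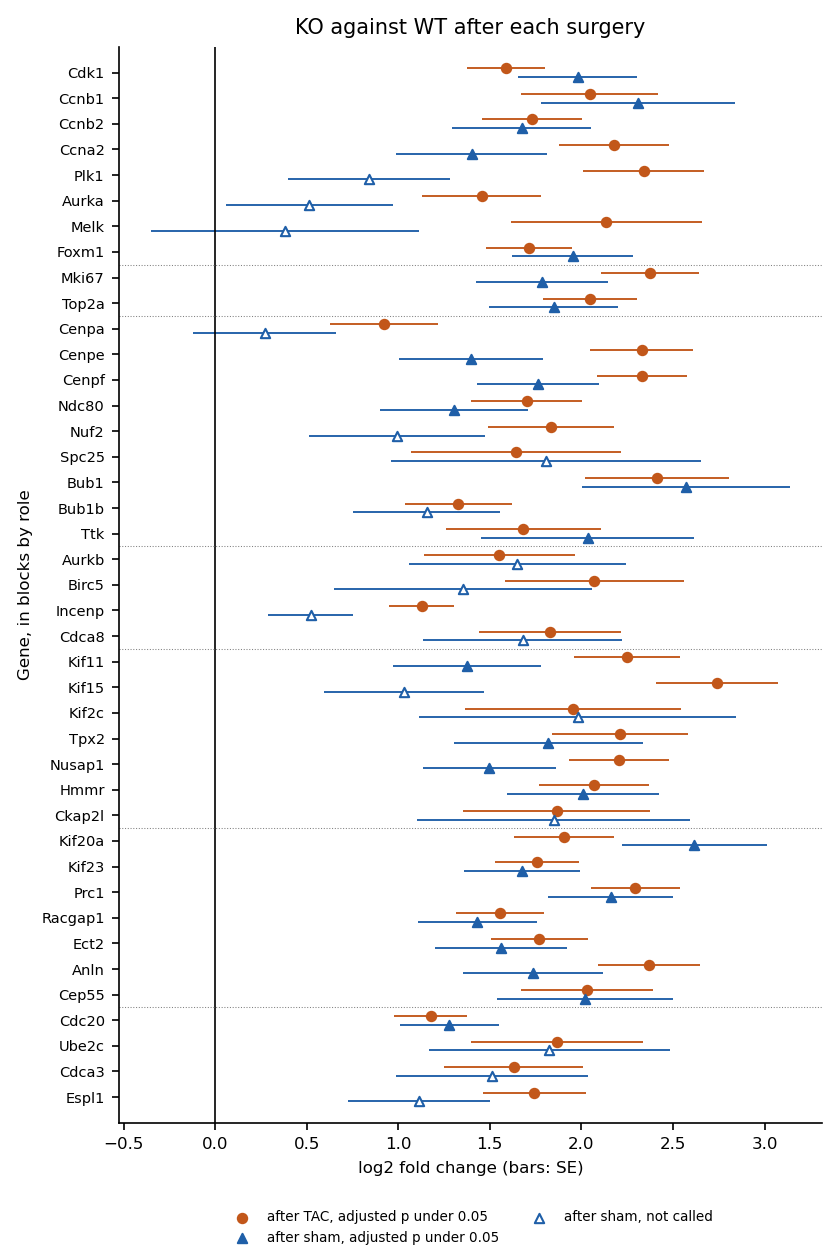
Difference between KO and WT as a log2 fold change (x axis, bars give SE) for each of the 41 genes after TAC (circles) and after sham surgery (triangles), filled where the adjusted p by edgeR is under 0.05. All 41 circles are filled, from 0.92 for Cenpa to 2.74 for Kif15, and 24 triangles are.

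In WT endothelial cells at 4 weeks, the share of these genes called between TAC and sham was near that of all genes tested. The summed level was 188 ± 67.1 CPM (SD, n = 5) in WT TAC and 171 ± 16.9 CPM (SD, n = 3) in WT sham, a ratio of means of 1.10, and the WT TAC libraries fell on both sides of the WT sham range. Of the 41 genes 1 was called higher by edgeR, Cdk1, where 1.6% of all genes tested were, and none was called lower (0.986% of all genes tested). At an unadjusted p of 0.05, 2 genes passed, Cdk1 and Kif20a, and the median log2 fold change was 0.26, against 0.00 over all genes tested. Of the 41 log2 fold changes, 31 were above 0. With n = 3 in WT sham and a median of 4 counts for these genes in WT sham 133, smaller changes could have been missed. No gene of the 41 had every WT TAC library above every WT sham library, against 7.91% of all genes tested. Fibroblast markers rose in the same comparison, from 198 to 412 CPM in WT sham to 529 to 804 CPM in WT TAC, with 6 of 10 called. Of the cardiomyocyte markers, Myh7 and Nppa were called higher and Myh6 lower. The smooth muscle markers Tagln and Acta2 were called lower. The part of these markers in the values of the 41 genes was not tested.

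Cdk1 was at 1.98, 1.92 and 3.76 CPM in WT sham and 6.46, 5.88, 3.68, 5.54 and 4.12 CPM in WT TAC. The high sham value of 3.76 CPM came from the shallow library WT sham 133, which lay just above WT TAC 136, so the groups overlapped by 1 library on each side. The log2 fold change was 1.28 ± 0.30 with adjusted p = 0.0253 by edgeR. The call was lost on removal of WT sham 131 or 132 (edgeR adjusted p = 0.204 and 0.173) or of WT TAC 134 or 137 (0.0705 and 0.0567), with log2 fold changes of 1.15 to 1.40 over all alternatives run. Mki67 and Top2a, in contrast to Cdk1, had log2 fold changes of 0.06 ± 0.33 and 0.28 ± 0.32, and WT TAC libraries lay both above and below the sham libraries in each. The widest fall among the 41 was that of Kif15, -0.69 ± 0.41, which did not pass (adjusted p = 0.471 by edgeR).

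In KO endothelial cells, 3 of the 41 genes were called higher after TAC than after sham by edgeR, Cdk1, Kif11 and Aurka. That share is not far above the 4.65% of all genes tested that were called higher. None was called lower (4.94% of all genes tested). Summed over the 41 genes, the level was 631, 545 and 343 CPM in KO sham, as against 667, 927, 715 and 695 CPM in KO TAC, without overlap and with a ratio of means of 1.48. Of the 41 log2 fold changes 39 were above 0, with a median of 0.57 against 0.01 over all genes tested, and 13 passed at an unadjusted p of 0.05. In 12 genes every KO TAC library lay above every KO sham library, against 9.18% of all genes tested. Because the KO TAC libraries also enter the comparison with WT TAC, these differences are not independent of those given above. The count of 3 was 5 by DESeq2, 0 by limma voom, 0 in a fit of the KO groups only, and 0 without KO sham 348 and 350 together, when the median log2 fold change was 0.47. Left out singly, KO sham 350, KO TAC 352 or KO TAC 353 each brought it to 0, KO TAC 351 to 1 and KO sham 349 raised it to 7. Without KO sham 348 the calls on Cdk1, Kif11 and Aurka were lost as well (edgeR adjusted p = 0.0634, 0.129 and 0.114). Cardiomyocyte markers summed to 222 to 308 CPM in KO sham and 103 to 167 CPM in KO TAC, and pericyte and smooth muscle markers to 154 to 253 and 114 to 168 CPM. Of the 10 endothelial markers 4, Tek, Kdr, Tie1 and Flt1, were called lower and none higher. The fibroblast markers Postn and Pi16 were called higher and Pdgfra lower, and the erythroid marker Slc4a1 was called lower. The part of these markers in the result was not tested.

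Cdk1 was at 7.93, 10.3 and 6.79 CPM in KO sham and 13.2, 18.8, 15.8 and 14.4 CPM in KO TAC, and the lowest KO TAC library stood above the highest KO sham library. Its log2 fold change was 0.88 ± 0.25 with adjusted p = 0.0277 by edgeR. The call on Cdk1 was lost on removal of KO sham 348 or 350 (edgeR adjusted p = 0.0634 and 0.0635) or of KO TAC 352 or 353 (0.095 and 0.065). Its adjusted p was 0.426 by edgeR when KO sham 348 and 350 were left out together. Kif11 was at 7.93, 17 and 9.46 CPM in KO sham and 23, 32.5, 23.7 and 19.7 CPM in KO TAC, without overlap, a log2 fold change of 1.09 ± 0.33 with adjusted p = 0.0402 by edgeR. That call was lost on removal of KO sham 348 or 350 (edgeR adjusted p = 0.129 and 0.0875) or of KO TAC 351, 352 or 353 (0.0624, 0.128 and 0.0752). Aurka, which matures the spindle poles, was at 2.46, 5.58 and 1.23 CPM in KO sham and 8.93, 8.49, 5.83 and 7.41 CPM in KO TAC. KO sham 349 nearly reached the lowest KO TAC library, and the log2 fold change was 1.24 ± 0.39 with adjusted p = 0.045 by edgeR. Aurka was called in 7 of 22 settings, and its adjusted p by edgeR, DESeq2 or limma voom ranged from 0.00298 to 0.665. Mki67 and Top2a had log2 fold changes of 0.65 ± 0.30 and 0.47 ± 0.28, with KO sham 348 inside the KO TAC range in each. The cytokinesis gene Cep55 (-0.20 ± 0.39) and the checkpoint gene Ttk (-0.09 ± 0.46) were the 2 of 41 below 0.

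**Figure D5:**
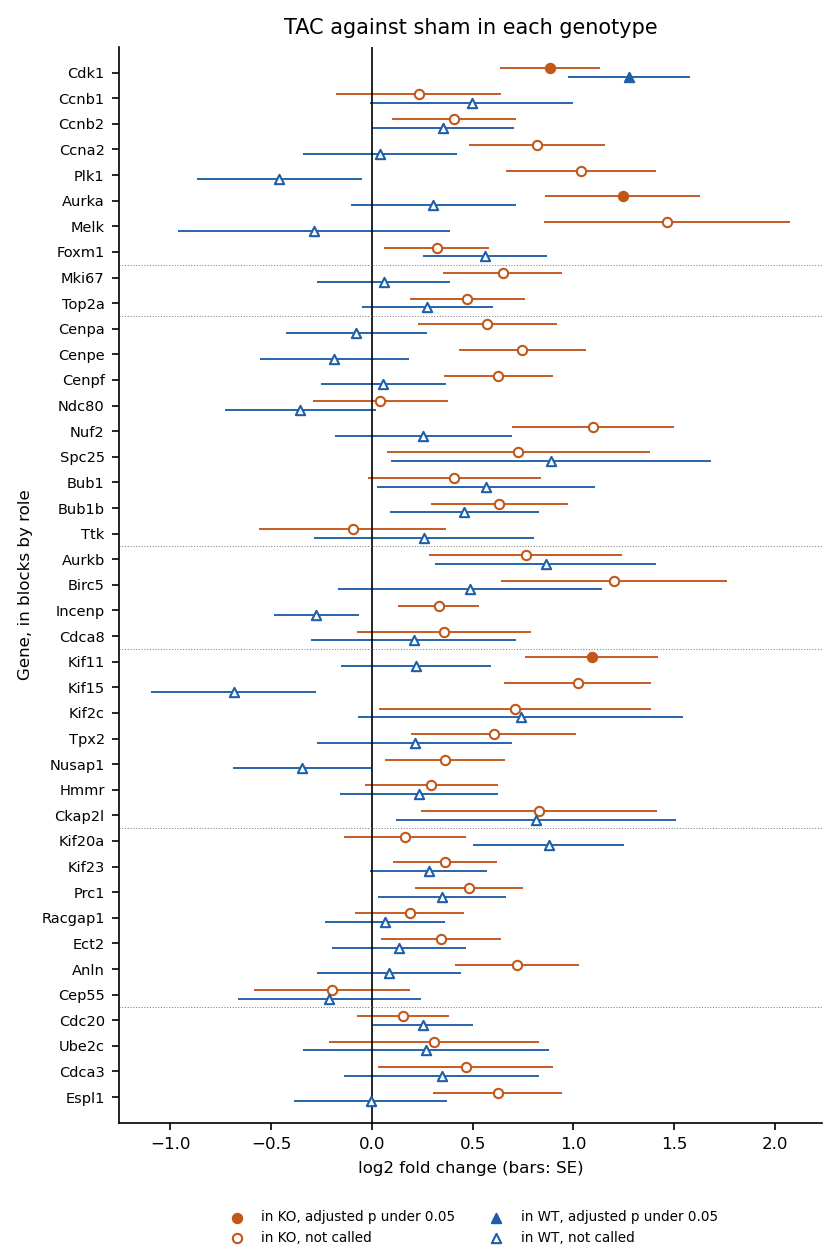
Log2 fold change of TAC against sham (x axis, bars give SE) for each of the 41 genes in KO (circles) and WT (triangles), filled where the adjusted p by edgeR is under 0.05. Cdk1, Aurka and Kif11 are filled in KO and Cdk1 in WT.

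Whether TAC acted differently on these genes in KO and WT was tested as the difference of the TAC effects, and 0 of the 41 passed by edgeR, where 0.69% of all genes tested did. DESeq2 and limma voom also called 0, and 3 genes passed at an unadjusted p of 0.05, Kif15, Plk1 and Incenp. Kif15 had the smallest p, with a difference of 1.71 ± 0.55 on the log2 scale, from a TAC effect of -0.69 in WT and 1.02 in KO (adjusted p = 0.143 by edgeR). Plk1 differed by 1.50 ± 0.55 (adjusted p = 0.199) and Incenp by 0.61 ± 0.29 (adjusted p = 0.342), both by edgeR. The TAC effect was above 0 in both genotypes for 30 of the 41 genes and above 0 in KO alone for 9, and the median difference was 0.17. Taken as the mean TAC effect over both genotypes, Cdk1 was the 1 gene of 41 called by edgeR, where 5.93% of all genes tested were called higher. Its mean effect was 1.08 ± 0.20 (adjusted p = 0.000979 by edgeR), and it passed in 21 of 21 settings. The count was 2 by DESeq2 and 4 without KO sham 348 or without KO sham 349. With KO sham 348 and 350 both left out, the difference held 0 genes and the mean effect 1.

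KO TAC 352 held the highest KO TAC value for 33 of the 41 genes, WT TAC 134 the highest WT TAC value for 22, and WT TAC 136 and 138 the lowest for 24 and 15. KO sham 350, the shallowest KO library, held the lowest KO sham value for 29 genes, and the highest was in KO sham 349 for 19 and in KO sham 348 for 18. WT sham 133, the shallowest of all libraries, was highest for 14 genes and lowest for 19, and WT sham 131 highest for 21 and lowest for 7. Mki67 took 11.3% to 16.2% of the summed level in the WT TAC libraries and 18.1% to 19.0% in the KO TAC libraries, without overlap. In sham it took 13.2% to 17.3% in WT and 15.0% to 20.7% in KO, with overlap.

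Per length of the gene's exons, the highest levels in WT TAC were those of Cdc20 (4.45 ± 1.04 CPM per kilobase, SD), Cenpa (4.37 ± 0.98) and Incenp (2.94 ± 0.673), whose spreads overlapped between Cdc20 and Cenpa. These 3 also had the smallest log2 fold changes of KO TAC against WT TAC, 1.18, 0.92 and 1.13. The WT TAC values enter both the level and the fold change, so this match is not independent. In KO TAC the highest were Mki67 (13.9 ± 2.48 CPM per kilobase, SD), Prc1 (12.5 ± 2.24), Top2a (11.7 ± 2.48) and Cdc20 (10.2 ± 2.43), neighbours that did not differ from each other beyond their spread. Cdc20 was also first in KO sham (9.10 ± 2.25 CPM per kilobase, SD), close to Prc1 (8.91 ± 2.21), and second in WT sham (3.68 ± 0.355) after Cenpa (4.27 ± 1.33). Bub1 was lowest per length in WT TAC and in KO TAC, at 0.294 ± 0.157 and 1.63 ± 0.338 CPM per kilobase.

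Other genes of the pathway were counted over lists drawn up by known function, each read against the 14.8% of all genes tested called higher and the 15% called lower in KO TAC against WT TAC. Of 15 further genes of mitotic entry 12 rose and none fell. Gtse1, a protein of late cell cycle that restrains p53, had the smallest p of these, at 33.6 ± 5.33 CPM in KO TAC (SD, n = 4) and 2.14 ± 0.484 CPM in WT TAC (SD, n = 5), a log2 fold change of 3.96 ± 0.21. Wee1, the kinase that holds CDK1 inactive, rose by 0.90 ± 0.14, and Cdc25b, the phosphatase that activates it, by 0.88 ± 0.15, so that genes of opposed action on CDK1 rose together. Of 28 other spindle and cytokinesis genes 22 rose and 1, Numa1, fell (-0.21 ± 0.07), with Ckap2 and Iqgap3 rising by 2.86 ± 0.28 and 2.15 ± 0.24. Of 30 further centromere and kinetochore genes tested 13 rose, among them Casc5 (the gene for KNL1, 2.76 ± 0.39), and 1 fell, Cenpb (-0.26 ± 0.08).

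Of 22 cohesin and condensin genes tested 13 rose, among them the condensin subunits Ncapg2 (1.55 ± 0.21) and Ncapd2 (1.18 ± 0.19) and Sgol2, which protects cohesin at centromeres (2.06 ± 0.30). The cohesin subunit Rad21 fell, with a log2 fold change of -0.32 ± 0.07, and so did Pttg1 (securin), the inhibitor of separase, with -0.49 ± 0.13. The 19 spindle checkpoint and APC/C genes held 2 that rose, Anapc1 (0.25 ± 0.07) and Cdc27 (0.24 ± 0.09), and 3 that fell, Anapc5 (-0.39 ± 0.06), Anapc2 (-0.27 ± 0.07) and Anapc11 (-0.52 ± 0.14). These counts, 2 and 3 of 19, are near the background in both directions, and the list median was -0.05. In the promoters of this list a CHR was found in 3 of 18 (16.7%) and a CCAAT in 6 of 18 (33.3%). The CHR share was 17.2% for S phase genes, 20% for DREAM and MuvB genes and 22.2% for genes of mitotic entry. It was 30% for kinetochore genes, 40% for other spindle genes and 50% for cohesin and condensin genes. In the same order, the CCAAT share was 58.6%, 40%, 88.9%, 50%, 70% and 42.9%. Whether these shares bear on the changes of the lists was not tested. The lower members Numa1, Cenpb, Rad21 and Pttg1, and Anapc1 and Cdc27, were named after their values were seen where they lie outside the 3 smallest p-values of their list.

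Of 13 genes of the DREAM and MuvB complex and its regulators 6 rose, Cdkn1a, Tfdp1, Trp53, Mybl2, Rbl2 and Lin9, and 1 fell, Rbbp4. Cdkn1a, the inhibitor of cyclin-dependent kinases that acts against division downstream of p53, was at 724 ± 34.2 CPM in KO TAC (SD, n = 4) and 249 ± 104 CPM in WT TAC (SD, n = 5), a log2 fold change of 1.54 ± 0.19. In KO sham against WT sham it rose by 0.92 ± 0.24 (adjusted p = 0.0211 by edgeR). That call was lost on removal of WT sham 131 or 132 (edgeR adjusted p = 0.118 and 0.0726) or of KO sham 348 (0.0523), without KO sham 348 and 350 together (log2 fold change 0.83, adjusted p = 0.196 by edgeR) and by limma voom (adjusted p = 0.0998). After TAC the inhibitor and the mitotic genes were thus higher in the same group. Mybl2, the activating partner of MuvB, rose by 1.81 ± 0.43 from 0.906 ± 0.469 to 3.27 ± 0.629 CPM. Of 36 S phase genes 18 rose and none fell. Their median log2 fold change was 0.60, where that of the 41 mitotic genes was 1.87, and Pole, a subunit of a replicative polymerase, rose by 2.83 ± 0.27.

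In KO sham against WT sham, where 4.57% of all genes tested were called higher and 4.63% lower, the same lists held 6 of 15 genes of mitotic entry higher and 15 of 28 other spindle genes by edgeR. The counts were 5 of 30 kinetochore genes, 5 of 22 cohesin and condensin genes (with Rad21 and Smc1a lower), 5 of 36 S phase genes, 2 of 13 DREAM and MuvB genes and 0 of 19 checkpoint and APC/C genes. At an unadjusted p of 0.05 that last list held 1 gene higher and 3 lower. Without KO sham 348 and 350 the counts higher were, in the same order, 5, 12, 2, 4, 7, 0 and 0, none was lower, and 1.83% of all genes tested were called higher and 1.18% lower. Gtse1 had the smallest p among them again, at 16.8 ± 3.33 CPM in KO sham and 1.82 ± 1.03 CPM in WT sham, a log2 fold change of 2.90 ± 0.29 that was called under all 22 alternatives.

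In KO TAC against KO sham, 4.65% of all genes tested were called higher and 4.94% lower. Of the 7 lists, 4 genes were called higher by edgeR and 2 lower, and over the lists together both shares lay below those of all genes tested. Higher were 2 of 15 genes of mitotic entry, 1 of 28 other spindle genes and 1 of 13 DREAM and MuvB genes. Lower were 1 of 22 cohesin and condensin genes and 1 of 19 checkpoint and APC/C genes. Gtse1 (1.00 ± 0.21), Cdc25a (0.65 ± 0.18), Tfdp1 (0.50 ± 0.15) and Cit (0.62 ± 0.20), the citron kinase of cytokinesis, were higher, and Pttg1 (-0.49 ± 0.15) and Anapc11 (-0.58 ± 0.16) were lower. All 6 calls were lost without KO sham 348 and 350, where no gene of the lists was called. The log2 fold changes were then 0.81 for Gtse1, 0.31 for Cdc25a, 0.62 for Tfdp1, 0.30 for Cit, -0.23 for Pttg1 and -0.09 for Anapc11 (edgeR adjusted p = 0.139, 0.559, 0.133, 0.669, 0.672 and 0.906). Of the 22 alternatives, Gtse1 was called in 21, Cdc25a in 15, Pttg1 and Anapc11 in 14, Tfdp1 in 13 and Cit in 8. In WT TAC against WT sham no gene of the 7 lists was called by edgeR, and 3 were higher and 4 lower at an unadjusted p of 0.05.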

How the data were processed

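Per the labels' protocols, an RNeasy Plus kit gave the RNA and a TruSeq kit the libraries. Reads were aligned with HISAT2 2.1.0 to mm10, per the submitters' processing notes. The authors deposited 1 table of raw counts per gene, made with featureCounts 1.6.2 at strand setting 2, per the file headers, with no option for multimapping reads, so near-identical copies would be undercounted. Of 23337 genes, 6512 had no count, and 0 sample columns were left unused.

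Groups came from the labelled genotype and treatment. The test was edgeR 4.0.16 under R 4.3.3 (filterByExpr with a minimum count of 10 and a total of 15, TMM, glmQLFit and two-sided glmQLFTest on all 15 libraries, 11 residual degrees of freedom), with Benjamini-Hochberg adjustment over 12471 genes in each of 6 comparisons and a threshold of 0.05. "Rose", "fell" and "called" refer to this test. P-values measure the spread between these mice. CPM used TMM-scaled library sizes, with factors of 0.9599 to 1.031, and a count of 0 allows up to 3 counts, or 0.190 to 2.26 CPM by library, for counting error only. The steps were checked on simulated counts. Alternatives were DESeq2 1.42.0, voom of limma 3.58.1 with quality weights, RLE factors, other filters (none, or 1 CPM in 3 libraries), only the groups compared, and libraries left out.

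The 41 genes, the other lists and the tests were chosen with earlier results of these data known. The genes named were every one of the 41 with an adjusted p under 0.05, the 4 smallest p-values per comparison, a set of 8 common markers, and up to 3 called genes of each further list per comparison. Promoters were searched in the 250 bases before 1 RefSeq start per gene, the one nearest the gene start of the count table.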

Additional observations from a re-analysis of the deposited data

Results flagged for a closer look

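In the groups of 4 and 5 mice, 84 sets of values were examined (the 41 genes and their sum in WT TAC and in KO TAC), and in 5 of them 1 library lay farther from the rest than Dixon's 95% criterion allows. Chance gives such a gap in about 5% of groups. The KO TAC library 352 was the high one in 3 of the 5. It held 17.8 CPM of Bub1b, where the nearest KO TAC library held 12.8 CPM. For Cdca8 it held 9.23 CPM, where the nearest held 4.70 CPM, and for Prc1 47.6 CPM, where the nearest held 35.0 CPM. KO TAC 354 was low for Foxm1, at 16.5 CPM against 19.7 CPM in the nearest library. WT TAC 138 was low for Cenpa, at 3.57 CPM against 6.08 CPM. None of the 5 values crossed into the range of the other genotype after TAC. The groups of 3 mice were not examined in this way.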

How the results depend on the processing

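The count of 41 genes called in KO TAC against WT TAC stayed at 39 to 41 with each library left out. Left out in turn, the libraries gave 13 to 30 genes in KO sham against WT sham, 0 to 1 in WT TAC against WT sham, 0 to 7 in KO TAC against KO sham, 0 in each case for the difference of the TAC effects and 1 to 4 in the mean TAC effect. With only the groups compared the counts were 12 in KO sham against WT sham and 0 in KO TAC against KO sham. For KO TAC against KO sham they were 5 by DESeq2, 0 by limma voom and 0 without KO sham 348 and 350 together, and DESeq2 called 2 in the mean TAC effect. In the single genes named, the log2 fold change of Mki67 in WT TAC against WT sham, which was not called, changed sign by DESeq2 (-0.0129) and when a library was left out (-0.19 to 0.25). In KO TAC against KO sham, without a call, Ccnb1 changed sign by limma voom (-0.00675) and without KO sham 348 and 350 together (-0.13), as did Cdc20 (-0.0127 and -0.19). The cause of these changes was not tested. Over the single genes and alternatives 2877 values kept their direction and side of the threshold, 219 lost a call, 9 gained one and 8 changed sign. The shallowest library, WT sham 133, held a median of 4 counts per gene, and Bub1, Aurkb and Cdca3 were at 0 there where 1.33, 1.89 and 1.87 counts were expected, so their absence was not detectable at this depth. No paired analysis was possible because the mouse numbers differ between all groups.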
